A study of Mus musculus with 24 samples.

Results

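The clustered core histone genes are the genes that encode the histones H2A, H2B, H3 and H4 from tandem arrays, and 53 of them were found among the 16572 genes of the RNA-seq table. The members were chosen by name, as every gene called Hist1 to Hist4 followed by h2a, h2b, h3 or h4, or called H2ac, H2bc, H3c or H4c followed by a number. This gave 16 H2A, 13 H2B, 12 H3 and 12 H4 genes. The set was proposed because these genes differed between the cultures in an earlier look at the same values, so their differences are given as a description and were not tested.

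The study grew mouse oocytes outside the follicle and compared cultures in 5% O2 with cultures in 20% O2. The oocytes came from 7-day-old ovaries that were digested and plated on gelatine. The strain is labelled as C57BL/6 Barb, and the study's text describes a cross with SV129. Both groups were of class IV and are labelled as 60 to 70 µm, although the study's text gives a lower diameter range for the oocytes collected from 20% O2. The IV 5% O2 oocytes were grown for 9 days with a daily change of medium and the IV 20% O2 oocytes for 14 days with medium changed less often, so oxygen, culture time, medium change and, by the study's text, oocyte size cannot be told apart. Each condition had 2 RNA-seq libraries made from total RNA after depletion of ribosomal RNA, but the deposited table holds 1 value per gene and condition. There is therefore no spread between replicates, no test and no p-value here, and each interval covers counting error only.

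Core histone proteins form the nucleosome, with 2 copies of each family in every octamer. Their clustered genes have no introns in the coding sequence, are used chiefly while DNA is copied, and give mRNAs that end in a conserved stem-loop in place of a poly(A) tail. The stem-loop binding protein holds this hairpin through processing, translation and decay. Growing oocytes are arrested in meiosis and do not copy DNA, yet they store histone mRNA and protein for the embryo.

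The hairpin is the sequence that sets these genes, and the linker histone genes described below, apart from most other mRNAs, so it is shown first. A 16-base pattern with 6 paired bases was searched in the 150 bases after each stop codon in GRCm38. It was found in 52 of the 53 members, 21 to 58 bases after the stop codon with a median of 30.5, and in 15 of 21671 other protein-coding genes (0.0692%). Those other genes leave out every gene whose name begins with Hist, so linker histone genes such as Hist1h1e were not counted. Hist1h2an was the member without it. The examples below are the genes whose levels are described later, each 5′ to 3′ on the gene's strand with the 16 bases of the hairpin in capitals.
H2ac1: aaaaaGGCTCTTTTCAGAGCCacctt
H2bc1: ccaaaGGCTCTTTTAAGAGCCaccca
H3c7: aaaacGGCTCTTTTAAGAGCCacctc
H3c2: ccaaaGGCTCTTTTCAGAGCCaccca
H4c8: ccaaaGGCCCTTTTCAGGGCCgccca
H4c11: ctaaaGGTCCTTTTCAGGACCaccac
H4c14: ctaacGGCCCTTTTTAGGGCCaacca

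The stem divided the families by its letters. All 40 hairpins of H2A, H2B and H3 genes began with GGCTCT, whereas 10 of the 12 H4 hairpins began with GGCCCT and the other 2, in H4c2 and H4c11, with GGTCCT. The form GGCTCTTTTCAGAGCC was the most common, in 13 H2A, 9 H2B and 8 H3 genes, and the form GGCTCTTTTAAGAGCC was carried by 8 genes, among them H2bc1 and H3c7. The median log2 difference between the cultures was -4.16 for the 30 genes with the first of these forms and -3.81 for the 8 with the second. The 7 H4 genes with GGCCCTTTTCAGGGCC had a median of -4.27.

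Core histone transcripts were far less abundant in IV 5% O2 than in IV 20% O2 oocytes. Levels are given as RPM, read counts scaled to the depth behind each column, which was worked out from the value of 1 read. A difference is log2(RPM + 1) in IV 5% O2 minus log2(RPM + 1) in IV 20% O2, a scale on which changes of weakly expressed genes look smaller than they are. All 53 members had a mean of at least 1 RPM and were compared with the 14704 genes past that filter. Of the 53, 52 were at least 2-fold lower in IV 5% O2, a class that held 9.22% of all genes compared. All 53 were lower by some amount, against 37.4% of all genes, and 40 were at least 8-fold lower, against 1.05%. No member was at least 2-fold higher, whereas 18.7% of all genes were. These background shares are printed for scale, since the set was proposed on this contrast. In bulk RNA of this kind, fewer cells carrying a transcript and less transcript per cell cannot be told apart.

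The median difference of the members was -3.99, while that of all genes compared was 0.26, which places the members 4.24 below the middle gene. Their 111449 reads in IV 5% O2 were 0.102% of the reads over the genes of the table, and their 335991 reads in IV 20% O2 were 1.13%. The plot of differences shows the members to the left of the bulk of all genes. Of the other genes, 115 were also at least 8-fold lower, the lowest at -8.00, and 2 members, H2ac18 and H2ac19, lay below them. Scaling the columns by the median ratio or by quantiles moved the median of all genes to -0.04 and 0.06 and left all 53 members lower. The split over all genes, 1356 at least 2-fold lower and 2753 at least 2-fold higher, became 2031 and 1700 with the median ratio and 1866 and 1764 with quantiles.

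**Figure D1:**
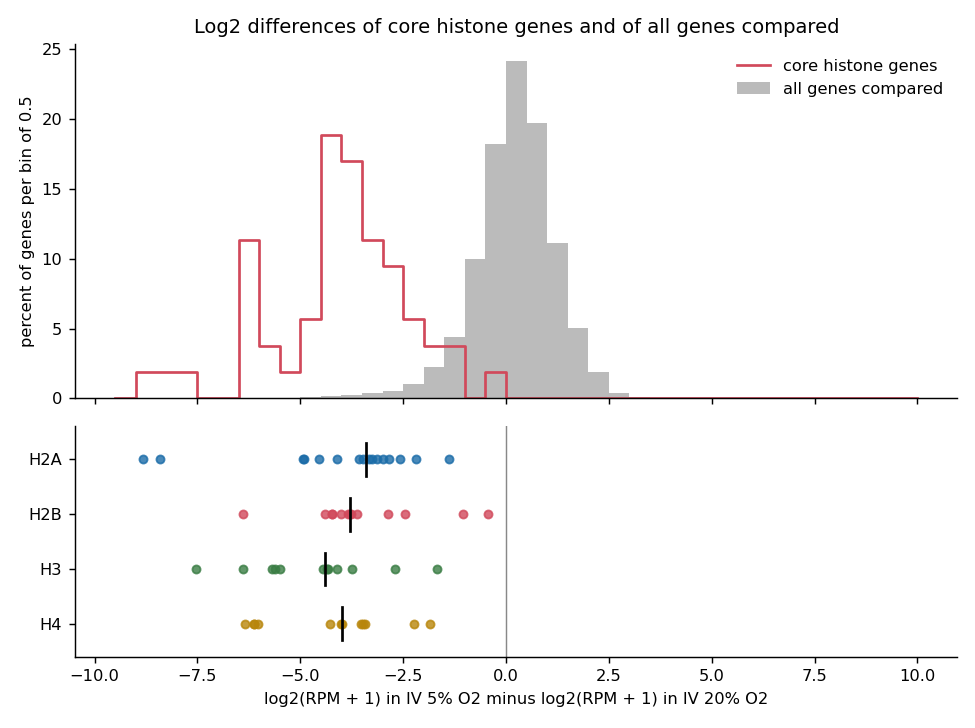
Log2 difference of each gene, IV 5% O2 minus IV 20% O2, as the percent of genes in bins of 0.5 for all 14704 genes compared (grey) and the 53 core histone genes (red line), and below as 1 point per histone gene by family with the family median as a black bar. All 53 points lie left of 0, with family medians from -4.40 for H3 to -3.40 for H2A.

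All 4 families had lower medians in IV 5% O2 on the log2 scale. The median difference was -3.40 for H2A (range -8.82 to -1.39), -3.79 for H2B (-6.38 to -0.44), -4.40 for H3 (-7.55 to -1.68) and -3.99 for H4 (-6.35 to -1.85). The ranges of the families overlapped over most of their length, and no difference between families was tested. Summed over genes, H2A transcripts were at 155 RPM with 5% O2 and 1911 RPM with 20% O2, a ratio of 12.3. H4 was at 183 and 2284 RPM, a ratio of 12.5, and H3 at 206 and 2186 RPM, a ratio of 10.6. H2B was at 300 and 1839 RPM, a ratio of 6.13. The H2A ratio rested on H2ac18 and H2ac19, genes with shared sequence that are described below. Without them H2A was at 154 and 984 RPM, a ratio of 6.37 that lies close to the one of H2B.

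The shares of the families differed between the columns. In IV 20% O2 oocytes the sum was 8220 RPM, with 23.3% for H2A, 22.4% for H2B, 26.6% for H3 and 27.8% for H4. In IV 5% O2 oocytes, where the sum was 843 RPM, H2B took 35.6%, H3 24.4%, H4 21.7% and H2A 18.4%. Without H2ac18 and H2ac19 the shares in IV 20% O2 were 13.5% for H2A, 25.2% for H2B, 29.97% for H3 and 31.3% for H4, and those in IV 5% O2 were 18.3%, 35.6%, 24.4% and 21.7%. The H2A share was thus lower in IV 5% O2 with the 2 genes and higher without them. The H2B share in IV 5% O2 rested on H2bc1 and H2bc18, whose values are given below.

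Per kilobase of exon, the middle member stood at the 99.0 percentile of the 14545 genes compared with a known length in IV 20% O2 and at the 56.9 percentile in IV 5% O2. The H4 genes went from a median percentile of 99.6 to 72.7, the H3 genes from 99.5 to 71.6, the H2B genes from 98.5 to 66.4 and the H2A genes from 97.0 to 43.6. The order of the members changed as well. Across the 53 members, the levels per kilobase in the columns had a Spearman rho of 0.54, highest within H2B (0.79, 13 genes) and lowest within H2A (0.39, 16 genes). These points share libraries and sequence, and the coefficients are descriptions.

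**Figure D2:**
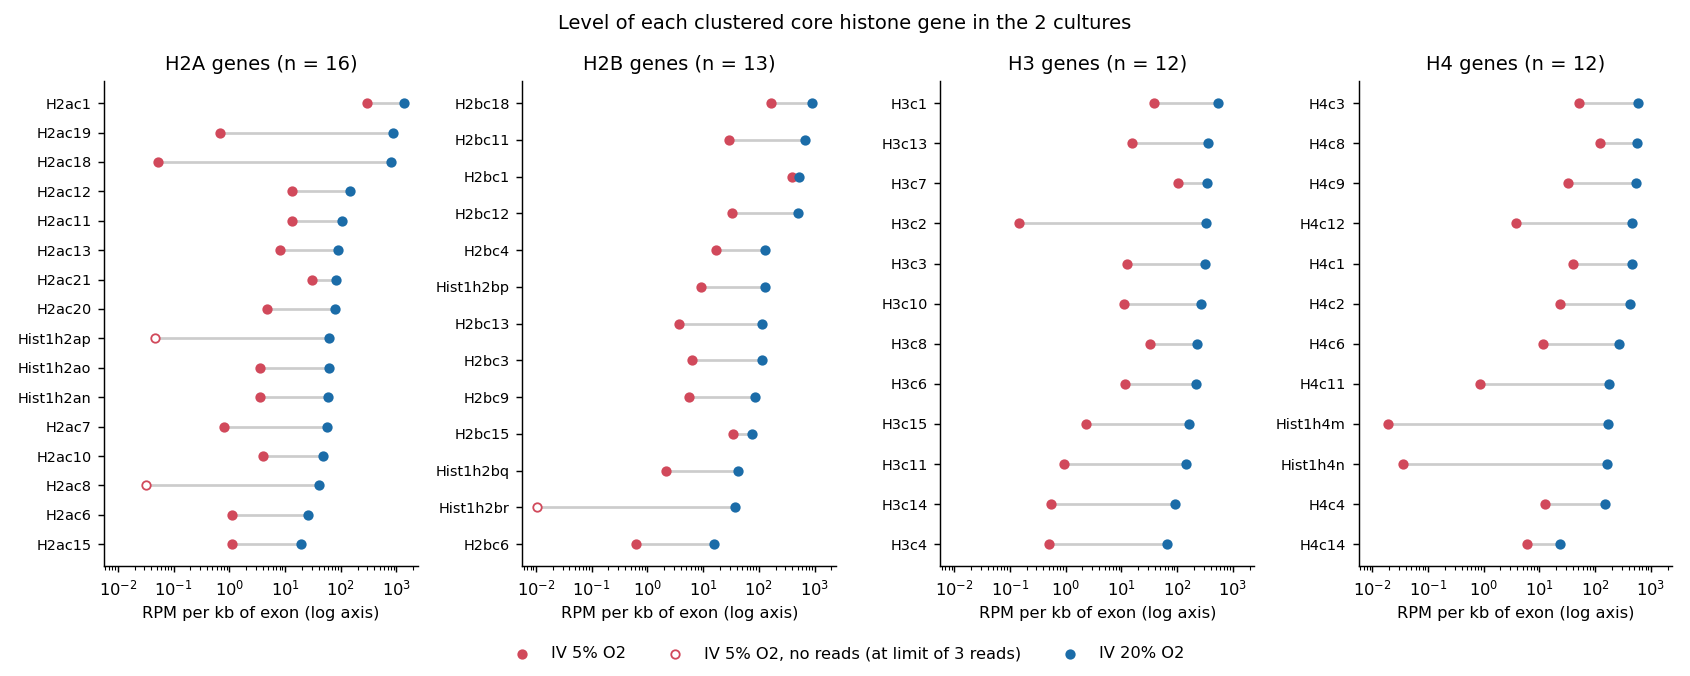
Level of each member in RPM per kilobase of exon on a log axis, IV 5% O2 in red and IV 20% O2 in blue, joined by a line, with the 3 genes without reads in IV 5% O2 drawn as open circles at the level of 3 reads. H2bc1 is the pair of points that lie closest together, and H2ac18 and H2ac19 have high blue points and very low red ones.

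H2A and H2B pair as dimers on the outside of the nucleosome. H2ac1 had the highest level per kilobase of all members in IV 20% O2 (chromosome 13, 23934462 to 23934851, plus strand). It encodes the variant TH2A, known from testis and oocyte, and had 115 RPM with 5% O2 and 526 RPM with 20% O2. That is 4.57-fold more in IV 20% O2 (95% counting interval 4.47 to 4.66) and a difference of -2.18, a smaller gap than that of most H2A genes.

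Its neighbour H2bc1, which encodes the variant TH2B, was the member that changed least (chromosome 13, 23933773 to 23934156, minus strand). It had 148 RPM in IV 5% O2, the highest value of any member there, and 202 RPM in IV 20% O2. The ratio was 1.36 (interval 1.33 to 1.40) and the difference -0.44, within 2-fold, and the difference was -0.76 after scaling by the median ratio and -0.67 by quantiles. H2bc15 lay just past 2-fold, with 13.1 and 28.1 RPM, a ratio of 2.14 whose interval of 1.98 to 2.30 spans 2, and a difference of -1.04. With a pseudocount of 5 RPM its difference was -0.87, so that 51 of the 53 members were at least 2-fold lower. H2ac1 and H2bc1 together gave 31.2% of the members' RPM in IV 5% O2 and 8.85% in IV 20% O2. Without this pair, the remaining 51 members summed to 580 and 7492 RPM, and the ratio rose from 9.75 to 12.9.

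Other H2A genes lay at the opposite end. H2ac18 (chromosome 3, 96245497 to 96246082) had 4 reads in IV 5% O2 and 19029 in IV 20% O2, or 0.0303 and 466 RPM, a difference of -8.82. H2ac19 (chromosome 3, 96239749 to 96240276) had 48 and 18863 reads, or 0.363 and 461 RPM, a difference of -8.41. These are inverted copies on chromosome 3, with 95.9% and 100% of their 100-base windows found elsewhere in the genome, so most of their reads match more than 1 gene. H2ac18 also overlaps Gm20634 on its own strand.

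H2ac21 was the H2A gene with the smallest difference (chromosome 3, 96219865 to 96220308). It had 13.5 and 37.0 RPM, a 2.73-fold ratio (interval 2.55 to 2.93), and 1.45% of its windows were repeated. All 16 H2A genes overlap an annotated gene on the opposite strand, as do 3 other members, H2bc18, H3c13 and H4c2. For H2bc18 and H3c13 this overlap covers all 381 and 488 exon bases. On their own strand 5 members overlap an exon of another gene, among them H2bc18 and H2bc6, which overlaps Hist1h1e. The libraries were strand-specific, but whether the counting used strand is not stated, so reads of such partners cannot be told apart from those of the histone gene.

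H2bc18 was the most abundant H2B gene per kilobase in IV 20% O2 (chromosome 3, 96269752 to 96270132). It had 62.0 RPM with 5% O2 and 347 RPM with 20% O2, a difference of -2.47, with none of its windows repeated. All of its 381 exon bases overlap Gm20628 on the opposite strand, and 226 overlap Gm42743 on its own strand. H2bc11 (chromosome 13, 22043214 to 22043676) had 13.5 and 307 RPM, a difference of -4.40. Hist1h2br (chromosome 13, 21833743 to 21837530) had no reads in IV 5% O2, which allows up to 0.0227 RPM, and 3375 reads or 82.6 RPM in IV 20% O2, at least 3638-fold more when set against the limit of 3 reads. The exact interval of the ratio has its lower end at 2957. All of its windows are repeated, and Hist1h2bq, which is likewise repeated throughout, had 568 and 3450 reads.

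H3 and H4 form the tetramer at the core of the nucleosome. H3c7 (chromosome 13, 23544052 to 23545312) was the H3 gene with the smallest difference and the second most abundant member in IV 5% O2. It had 132 and 427 RPM, a ratio of 3.23 (interval 3.16 to 3.29) and a difference of -1.68. H3c1 (chromosome 13, 23761853 to 23762386) had 21.0 and 293 RPM, a difference of -3.74, and H3c13 (chromosome 3, 96268654 to 96269141) had 7.68 and 175 RPM, a difference of -4.34. H3c2 (chromosome 13, 23752267 to 23752886) had 12 reads in IV 5% O2 and 8295 in IV 20% O2, or 0.0908 and 203 RPM, the largest H3 difference at -7.55. Just over 50% of the windows of H3c2 are repeated (56.6%).

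The most abundant H4 genes were H4c3, H4c8 and H4c9. H4c3 (chromosome 13, 23697635 to 23698454) had 41.5 RPM with 5% O2 and 489 RPM with 20% O2, a difference of -3.53. H4c8 (chromosome 13, 23531050 to 23531519) had 56.3 and 268 RPM, a difference of -2.23, and H4c9 (chromosome 13, 22040636 to 22041362) had 23.5 and 390 RPM, a difference of -4.00. Thus H4c8 led in IV 5% O2 while H4c3 and H4c9 led it in IV 20% O2 by RPM.

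The H4 genes ranged widely. H4c14 (chromosome 3, 96261682 to 96263311) was lowest in IV 20% O2, with 9.71 and 37.6 RPM and a difference of -1.85, whereas H4c11 (chromosome 13, 21735064 to 21735837) had 0.673 and 136 RPM, a difference of -6.35. H4c4 (chromosome 13, 23581598 to 23582735), which like H4c14 has no repeated window, had 14.2 and 168 RPM, a difference of -3.48. The near-identical Hist1h4m and Hist1h4n had 1 and 2 reads in IV 5% O2 and 2827 and 2848 in IV 20% O2. H2ac8 and Hist1h2ap, with Hist1h2br, had none in IV 5% O2, and no member was without reads in IV 20% O2.

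A few genes carried the remaining signal in IV 5% O2. The 5 members with the highest RPM there, H2bc1, H3c7, H2ac1, H2bc18 and H4c8, gave 61.0% of the members' RPM. The 5 highest in IV 20% O2 were H2ac1, H4c3, H2ac18, H2ac19 and H3c7. H2ac1 and H3c7 stood in both groups of 5.

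The members lie in 3 arrays when genes under 500 kb apart are joined. The array on chromosome 3 spans 96219865 to 96270132 and holds 9 members, 4 of them H2A genes. Chromosome 13 holds a proximal array of 21 members (21715763 to 22043676) and a distal array of 23 members (23531050 to 23934851). The median differences were close, -4.34 on chromosome 3, -4.01 in the proximal array and -3.77 in the distal one.

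The summed levels rested on a few genes of each array. The chromosome 3 genes had 99.1 RPM with 5% O2 and 1897 RPM with 20% O2, a ratio of 19.1, and the proximal genes 103 and 2086 RPM, a ratio of 20.2. The distal genes had 641 and 4237 RPM, a ratio of 6.61, and so gave 76.0% of the members' RPM in IV 5% O2 against 51.5% in IV 20% O2. H2ac1, H2bc1, H3c7 and H4c8 all lie in the distal array. Without H2ac18 and H2ac19 the ratio on chromosome 3 was 9.82 (98.7 and 970 RPM), and without H2ac1 and H2bc1 that of the distal array was 9.30 (377 and 3509 RPM), so these arrays were close without those 4 genes. By summed RPM, family content differed between the arrays in IV 20% O2. H2A genes gave 1004 of the RPM of the chromosome 3 array, most of it from H2ac18 and H2ac19 (466 and 461 RPM). In the distal array H3 and H4 gave 1506 and 1440 RPM.

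**Figure D3:**
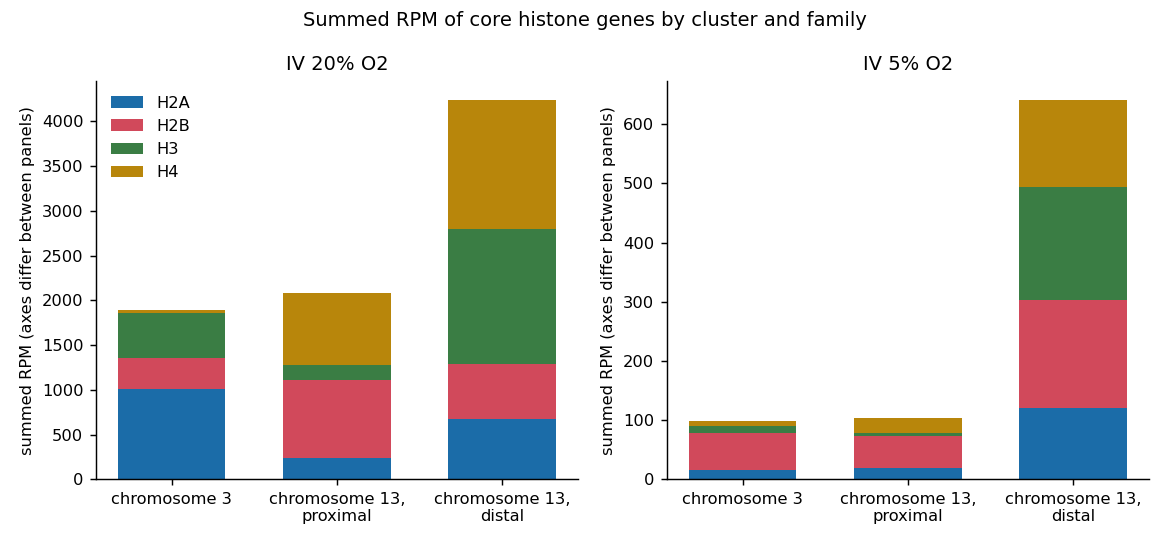
Summed RPM of the members in each array, stacked by family, in IV 20% O2 (left) and IV 5% O2 (right), with axes that differ between the panels. The distal chromosome 13 array is the tallest bar in both, at 4237 RPM on the left and 641 RPM on the right.

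In 9 places an H2A and an H2B gene start within 500 bases of each other and are read in opposite directions, with 235 to 305 bases between them. Per kilobase of exon, the H2B gene had the higher level in 6 of the 9 pairs in IV 20% O2 and in 6 of the 8 with reads in IV 5% O2. By the ratio of reads, the H2B gene had the larger decrease in 4 of the 8 pairs with reads in both columns and the H2A gene in the other 4. Hist1h2ap and Hist1h2br, the remaining pair, had no reads in IV 5% O2 and cannot be ordered. On the log2(RPM + 1) scale, where Hist1h2an/Hist1h2bp has the opposite order, the H2B difference minus the H2A difference ranged from -1.56 in H2ac11/H2bc11 to 1.74 in H2ac1/H2bc1.

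**Figure D4:**
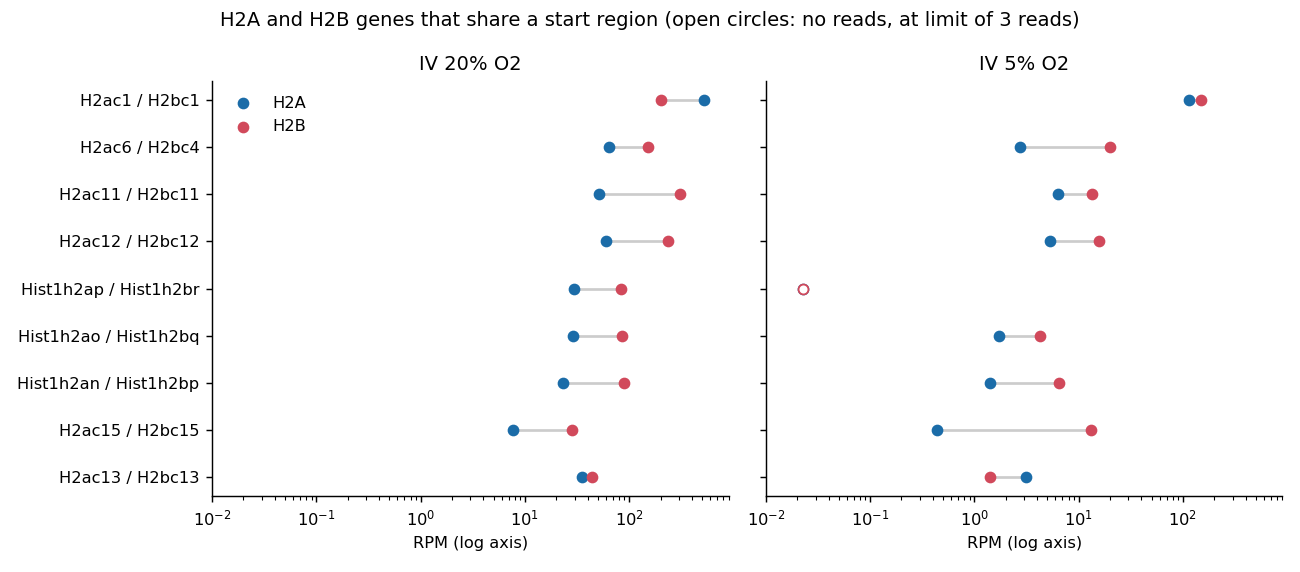
RPM on a log axis of the H2A gene (blue) and the H2B gene (red) of each of the 9 divergent pairs, in IV 20% O2 (left) and IV 5% O2 (right), with open circles at the level of 3 reads for genes without reads. H2ac1 lies above H2bc1 on the left (526 and 202 RPM) and below it on the right (115 and 148 RPM).

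The stretches between the genes of the pairs with the largest and the smallest value of this measure are shown, together with the 150 bases before H4c8, the leading H4 gene in IV 5% O2. Start sites are those of RefSeq for GRCm38.p6. Capitals mark, on either strand, the TATA box letters TATAAA, the pentamer CCAAT that the factor NF-Y binds, and the octamer ATTTGCAT that POU factors bind. The H2bc1 and H2ac1 stretch is chr13:23934157-23934436, the H2ac11 and H2bc11 stretch is chr13:22042950-22043197, both on the plus strand, and the H4c8 stretch is chr13:23530894-23531043, plus strand.
H2bc1 and H2ac1: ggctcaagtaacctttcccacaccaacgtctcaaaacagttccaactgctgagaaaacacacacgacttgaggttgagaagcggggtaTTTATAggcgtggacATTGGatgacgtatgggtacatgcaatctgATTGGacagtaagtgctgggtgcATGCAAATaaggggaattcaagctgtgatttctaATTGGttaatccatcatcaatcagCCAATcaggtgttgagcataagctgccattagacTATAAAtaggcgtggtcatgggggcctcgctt
H2ac11 and H2bc11: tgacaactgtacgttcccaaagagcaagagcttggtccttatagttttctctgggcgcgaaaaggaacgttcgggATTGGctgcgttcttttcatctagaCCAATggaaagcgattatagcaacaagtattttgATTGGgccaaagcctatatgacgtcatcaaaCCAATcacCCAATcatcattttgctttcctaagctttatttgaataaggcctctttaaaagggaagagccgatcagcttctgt
H4c8: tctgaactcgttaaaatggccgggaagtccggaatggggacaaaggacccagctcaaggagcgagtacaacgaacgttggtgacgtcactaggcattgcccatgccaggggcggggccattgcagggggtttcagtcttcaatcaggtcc

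The H2bc1 and H2ac1 stretch holds 4 copies of CCAAT, 2 of TATAAA and 1 octamer, the H2ac11 and H2bc11 stretch holds 5 copies of CCAAT and none of the others, and the H4c8 stretch holds none of the 3. Over 42 RefSeq promoters (250 bases before to 50 after the start) of the 41 members with an entry, CCAAT stood in 85.7%, against 37.4% of all 32851 promoters. It was present in every H2A, H2B and H3 promoter and in 3 of the 9 H4 promoters. TATAAA stood in 54.8% of the members' promoters and 13.6% of all promoters. The octamer stood in 10 of the 42 promoters, 5 of H2A and 5 of H2B genes, or 23.8% against 1.74% of all promoters. Promoters of a divergent pair cover much of the same bases, so 1 copy of a motif can count for both genes. The 1 octamer between H2bc1 and H2ac1 was counted in this way. None of the motifs contains another, and a match describes the sequence alone.

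Members of a family share long stretches, so a read can match several genes, and how the counting treated such reads is not stated. Of the 53 members, 49 have at least 1 stretch of 100 bases, which is what 1 read spans, in common with another member. The 4 members without a repeated window, H2ac1, H2bc18, H4c4 and H4c14, had differences from -3.48 to -1.85 with a median of -2.32, and summed to 201 and 1079 RPM, a ratio of 5.37. Of these, H2bc18 overlaps other annotated genes on both strands and H2ac1 overlaps 1 on the opposite strand, so their values are not free of overlap. The 26 members with some but under 50% of their windows repeated had a median of -3.78 and a ratio of summed RPM of 7.82. The 23 members with 50% or more had a median of -4.34 and a ratio of 37.6, with 71.3 and 2679 RPM.

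Members with more repeated sequence had the lower differences in part of the families. Spearman's rho between the difference and the share of repeated windows was -0.40 over the 53 members, -0.54 within H2A, -0.51 within H2B, -0.54 within H4 and 0.01 within H3. By class, H3 members with 50% or more of their windows repeated had a median of -5.48 and those with some but under 50% -4.11, whereas H2A members had -3.40 and -3.57, so the measures order H2A and H3 differently. These are descriptions over genes that share reads. The 4 members without repeats were all at least 2-fold lower in IV 5% O2. The part of shared reads in the larger differences of the other members was not tested.

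**Figure D5:**
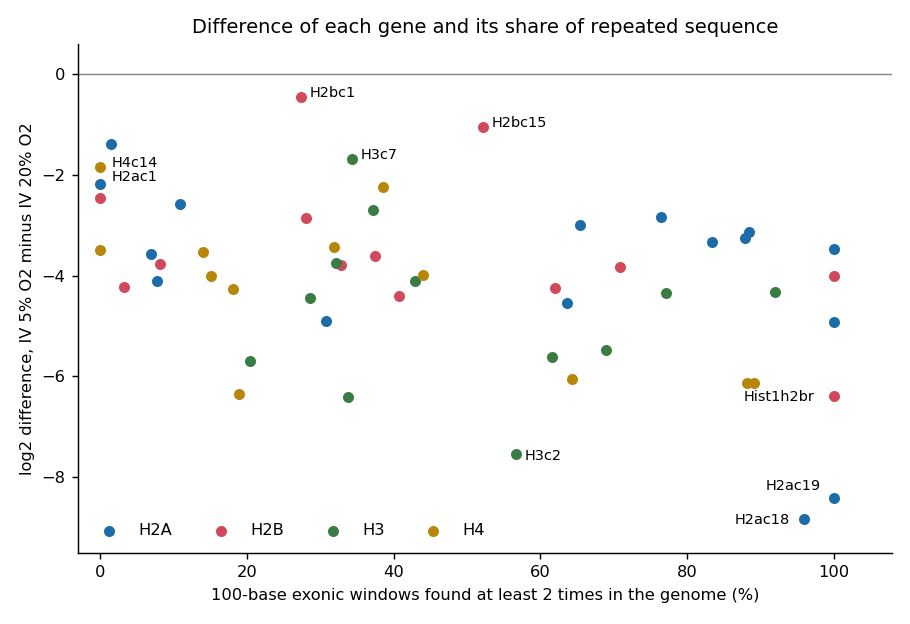
Log2 difference of each member, IV 5% O2 minus IV 20% O2, against the percent of its 100-base exonic windows that occur at least 2 times in the genome, coloured by family. The 4 members at 0% lie between -3.48 and -1.85, and the lowest points, H2ac18 and H2ac19, have 95.9% and 100% of their windows repeated.

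The annotated end of the gene may bear on what was counted. The study's text describes an oocyte-specific transcript annotation, whereas the ends used here are those of GENCODE genes with the same start and end as the members. Whether the counted exons were the same is not stated. In 14 members the annotation stops before the hairpin, with a median difference of -3.06, in 19 it ends at the hairpin, within 100 bases past it, with a median of -4.27, and in 19 it runs on for more than 100 bases, with a median of -4.01. The classes go by the end of the gene, and the hairpins of H2bc4, Hist1h2bq and Hist1h2br, in the last class, lie outside the annotated exons. Every class had a lower median in IV 5% O2.

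Among core histone genes that the naming rule left out, 3 were looked up after the members' values were seen, and all were lower in IV 5% O2. H2aw, also called Hist3h2a (chromosome 11), had 12.6 RPM with 5% O2 and 165 RPM with 20% O2, a difference of -3.60. H2bu2, or Hist3h2ba (chromosome 11), had 6.32 and 56.6 RPM, a difference of -2.98. H4f16, or Hist4h4 (chromosome 6), had 79.9 and 169 RPM, a difference of -1.07.

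The linker histones that lie in the same clusters went both ways. H1 genes encode the proteins that bind DNA between nucleosomes, and their mRNAs end in the same kind of hairpin. Of the 6 compared, against the shares of 9.22% lower and 18.7% higher over all genes, 1 was at least 2-fold lower and 2 at least 2-fold higher. Their sum was 1037 RPM with 5% O2 and 1049 RPM with 20% O2, most of it from H1f1 (819 and 722 RPM). By any amount 3 were lower, H1f2, H1f3 (82.3 and 112 RPM) and H1f4 (61.7 and 70.2 RPM), and 3 were higher. Those at least 2-fold higher, H1f5 (4.24 and 0.440 RPM) and H1f6, passed the filter only through their level in IV 5% O2. H1f2 had the lowest difference (63.7 and 144 RPM, -1.16) and H1f6, the testis linker histone, the highest (5.76 and 0.734 RPM, 1.96). The 2-fold counts stayed the same under both other scalings, while the list median went from near 0 to -0.32 with median-ratio scaling.

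Replacement histones lie outside the clusters and are mostly made from poly(A) mRNAs, though H2ax also gives an mRNA that ends in the hairpin. They had a median of 0.39 over 12 genes, and of 0.09 after scaling by the median ratio and 0.24 by quantiles. Against 9.22% lower and 18.7% higher over all genes, 2 of the 12 were at least 2-fold lower and 1 at least 2-fold higher. The lower ones were H2ax (37.8 and 123 RPM, -1.67), which marks DNA breaks, and H2az1 (49.8 and 130 RPM, -1.36), which marks gene starts. The gene at least 2-fold higher was H1f10 (6.19 and 2.35 RPM, 1.10), and with either other scaling no gene of this list was.

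The list of genes that make and trim histone mRNA lay near the background of all genes, of which 9.22% were at least 2-fold lower and 18.7% at least 2-fold higher, with a median of 0.26. Of its 15 genes, 0 were at least 2-fold lower and 3 at least 2-fold higher, with a median of 0.30 (-0.01 with median-ratio scaling, where 1 was lower and 1 higher). Slbp, the stem-loop binding protein, had 671 RPM with 5% O2 and 327 RPM with 20% O2, a difference of 1.03, and Casp8ap2, a scaffold of the processing complex, had 186 and 78.0 RPM, a difference of 1.24. Srrt was highest (85.4 and 24.8 RPM, 1.74) and Ncbp2, a subunit of the cap-binding complex, lowest (19.3 and 35.3 RPM, -0.84).

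The counts for genes of DNA replication and cell division were also near these shares of 9.22% and 18.7%. Of 19 genes, 0 were at least 2-fold lower and 2 at least 2-fold higher, with a median of 0.65 (0.34 by the median ratio and 0.45 by quantiles), and 0 were 2-fold higher with either other scaling. Mcm3, a subunit of the replicative helicase, was highest at 139 and 60.4 RPM (1.19), and Pcna, the polymerase clamp, lowest at 95.1 and 132 RPM (-0.47).

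Short RNAs without a poly(A) tail outside the histone genes moved the way of the core histone genes. Of the 14 on the list 7 were present, and all 7 were compared. Of these, 6 were at least 2-fold lower in IV 5% O2, against 9.22% of all genes, and 1 at least 2-fold higher, against 18.7%. The median was -2.68 and the sum was 276 RPM with 5% O2 against 1530 RPM with 20% O2. Scarna13, a guide RNA of the Cajal body, had 0.711 and 68.1 RPM (-5.34), and Rmrp, the RNA of a processing ribonuclease, had 18.6 and 442 RPM (-4.50). Rprl3, a gene related to the ribonuclease P RNA, was the one higher in IV 5% O2 (9.66 and 1.49 RPM, 2.10). The part of the capture of short or untailed RNA in the histone values was not tested.

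The depth behind the columns was 132185259 reads for IV 5% O2 and 40875359 for IV 20% O2, and the reads over the genes of the table summed to 109629353 and 29754908. All 12 oocyte markers were present, summing to 9683 and 13529 RPM. Of these, 3 were at least 2-fold lower in IV 5% O2 and 0 at least 2-fold higher, against 9.22% and 18.7% of all genes. Kit (148 and 448 RPM) had the lowest difference and Nobox (496 and 271 RPM) the highest. Of the 12 granulosa markers 6 were in the table, summing to 41.3 and 29.8 RPM, with Inha at 0 in IV 20% O2 and Fshr at 0 in IV 5% O2. Of the 4 granulosa markers past the filter, 1 was at least 2-fold higher in IV 5% O2, against 18.7% of all genes, and 0 with either other scaling. Inhba was highest (2.63 and 0.758 RPM, 1.05) and passed the filter only through its level in IV 5% O2. Nr5a2 was lowest (0.09). Of the 14 theca and stroma markers 9 were present, summing to 39.3 RPM with 5% O2 and 4.99 RPM with 20% O2. Of the 6 past the filter, 5 were at least 2-fold higher in IV 5% O2, against 18.7% of all genes (4 with either other scaling). Cyp11a1, Vim, Postn and Dcn passed the filter only through their level in IV 5% O2, so this count is in large part set by the filter. Cyp11a1 had 16.4 and 0.122 RPM (3.96), Fn1 4.94 and 2.30 RPM (0.85), and Vim, Dcn and Col1a2 were at 0 in IV 20% O2. The part of these cells in the histone values was not tested.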

How the data were processed

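Only the RNA-seq values of the class IV oocytes were used, and the methylation libraries were left out. The authors aligned reads to mm10 (per the labels, TopHat2 2.0.9) and quantitated them over merged exons in SeqMonk, with an oocyte-specific transcript annotation by the study's text. The deposited values are log2, 1 per gene and condition, and the way in which the 2 libraries behind each value were joined is not stated. A correction for length is described, but below 10000 reads 100% of linear values lie within 0.05 of a whole multiple of 1 read, so the values were read as log2 RPM, and a gene listed at 0.9 of a read was set to 0. A further 1 value column matches no labelled sample and was not used.

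Differences used a pseudocount of 1 RPM, for genes whose mean reached 1 RPM. No test was possible, and 2-fold differences were counted. Ratios of reads, with no pseudocount, have exact (Clopper-Pearson) 95% intervals, and the limit for a gene without reads is 3 reads per column, that is 0.0227 RPM with 5% O2 and 0.0734 RPM with 20% O2. Depth was 3.23 times higher in IV 5% O2, but 49 of the 53 members had fewer reads there, so their values are the less precise ones. Exon lengths are GENCODE's for GRCm38, and windows were looked up in the 22 chromosome sequences of that build. Calculations ran in Python 3.11.15 with pandas 2.3.3 and scipy 1.17.1, and the steps were tested on simulated data. The members and gene lists were chosen with earlier results of these data known. Members were named by a rule: in each family the 3 highest levels per kilobase and the largest and smallest difference, then members without a repeated window, and the highest and lowest member of each list. Other genes given with values, such as Slbp, Casp8ap2, H2az1, Rmrp, H2bc15, Hist1h2bq and the members with 2 reads or fewer, were named after their values were seen. Alternatives were other pseudocounts, filters and scalings and the leaving out of repeated members.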

Additional observations from a re-analysis of the deposited data

How the results depend on the processing

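Of 42 values for counts and family medians under the alternatives, 22 stayed within 1.5 times the count or the counting error, 20 moved and 0 changed direction. Among the other values, 53 moved and 69 did not. These include the order within divergent pairs by reads without a pseudocount, an alternative chosen after seeing the data, with the larger decrease in the H2B gene in 4 of 8 pairs against 6 of 9. The sums of arrays and families without single genes and the pairs per kilobase were also chosen then. A pseudocount of 0.1 RPM gave medians of -3.96 for H2A, -3.90 for H2B and -4.58 for H3, and a pseudocount of 5 RPM gave -2.47, -3.05 and -3.76, with -3.55 for H4. Median-ratio scaling gave -3.65, -4.07, -4.70 and -4.30 for H2A, H2B, H3 and H4, and quantile normalization gave -3.64, -4.01, -4.62 and -4.18. Among the 30 members with under 50% repeated windows, 29 were at least 2-fold lower, since fewer genes are counted, and the medians were -3.08, -3.69, -4.11 and -3.53. Over all genes, 706 were at least 2-fold lower and 1202 higher with a pseudocount of 5 RPM, against 1356 and 2753.

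No paired analysis was possible because the table holds 1 pooled value per condition, so neither the replicate block nor leaving out a replicate was run. Oxygen and culture time cannot be told apart. Counting error says nothing of the spread between cultures, and shared sequence limits what the value of a single gene means.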
